A study of Mus musculus with 9 samples.

Results

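Mesenchyme and neural crest regulators were followed through dissected tissues of the mouse embryo on MouseRef-8 v2.0 bead arrays, which read each gene with 1 or a few fixed probes. The members were every probe whose listed symbol is *Twist1*, *Twist2*, *Prrx1*, *Prrx2*, *Pdgfra*, *Pdgfrb*, *Snai1*, *Snai2*, *Zeb1* or *Zeb2*. Of these 10 genes, 6 are listed under that symbol, with 10 probes of the 25697 on the array, which carries 18120 symbols in all. *Prrx2*, *Snai2*, *Zeb1* and *Zeb2* are not among the listed symbols, and *Zeb1* and *Zeb2* have 3 probes under the older names *Zfhx1a* and *Zfhx1b*, which are described apart from the members. All tissue came from CD-1 embryos at E10.5, a mid-gestation age in embryonic days, with no treatment or transgene named, and each group holds 3 arrays, 9 in all. The OV group is the otic vesicle, the closed epithelial sac that becomes the inner ear, pulled free by hand and pooled. The periotic tissue group is what lies around the vesicle, mesenchyme together with hindbrain, so it is a mixture and not a mesenchyme preparation. The embryo-minus-otic group is the rest of the whole embryo after the greater otic region was taken out, with limb buds, trunk and heart together. The study's methods name separate litters as the source of the pools, and the labels do not say which pool holds which litter, so the p-values measure the spread between these pools.

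*Twist1* and *Twist2* are basic helix-loop-helix factors, *Prrx1* is a paired-type homeobox factor, and *Snai1* and the Zeb factors are zinc finger repressors. They are best known from mesenchyme and from epithelia that release migrating cells, such as neural crest, where Snail, Zeb and Twist factors act against epithelial genes such as E-cadherin. *Pdgfra* and *Pdgfrb* encode receptor tyrosine kinases for platelet-derived growth factors, *Pdgfra* mainly in mesenchyme and neural crest derivatives and *Pdgfrb* mainly in the cells around vessels. The otic vesicle is an epithelium, and the mesenchyme and crest cells around it later form its capsule and stroma.

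Levels are given as log2 intensity after quantile normalization, a difference of 1 being a doubling of the signal. Detection p-values under 0.01 were taken to place a probe above background, which 11283 to 12160 probes per array reached, 43.9% to 47.3% of all. Whether background was subtracted before deposit is not stated, and the lowest signals on the arrays were 32.8 to 49.2, so percentages of signal between groups can be drawn towards 100 for dim probes. A second set of values from neqc, which estimates the background from the detection p-values and removes it, is therefore given beside some of the values.

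Of the 5 member genes lower in OV and periotic tissue than in embryo-minus-otic, 3 hold a CCAAT match just upstream of the gene start. Those stretches, of *Twist1*, *Twist2* and *Snai1*, are shown. Each is the 250 bases before the RefSeq start on GRCm38.p6, read 5′ to 3′ on the plus strand, at chr12:33957421-33957670, chr1:91801211-91801460 and chr2:167537945-167538194. Capitals mark matches, on either strand, to CCAAT, to TATAAA or to CAGGTG, the E-box that Snail and Zeb factors are known to recognise.
Twist1: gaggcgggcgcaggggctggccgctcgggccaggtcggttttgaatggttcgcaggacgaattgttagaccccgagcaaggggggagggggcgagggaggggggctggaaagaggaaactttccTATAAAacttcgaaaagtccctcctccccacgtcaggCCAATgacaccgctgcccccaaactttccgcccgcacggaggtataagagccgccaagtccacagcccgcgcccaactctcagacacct
Twist2: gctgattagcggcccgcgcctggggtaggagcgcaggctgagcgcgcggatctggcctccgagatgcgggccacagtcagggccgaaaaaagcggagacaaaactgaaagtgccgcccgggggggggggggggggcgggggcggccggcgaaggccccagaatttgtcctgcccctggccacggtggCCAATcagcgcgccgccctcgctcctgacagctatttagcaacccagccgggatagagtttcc
Snai1: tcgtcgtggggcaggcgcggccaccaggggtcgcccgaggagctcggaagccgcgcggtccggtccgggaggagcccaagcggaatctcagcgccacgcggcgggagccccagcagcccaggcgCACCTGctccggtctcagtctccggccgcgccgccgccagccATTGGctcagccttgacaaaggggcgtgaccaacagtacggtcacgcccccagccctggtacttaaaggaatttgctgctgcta
*Twist1* held CCAAT beginning 89 bases before the start and TATAAA 126 bases before it, and *Twist2* held CCAAT 63 bases before it. The *Snai1* window held CCAAT on the other strand, 84 bases before the start, and CAGGTG on the other strand, 126 bases before it. Of 32817 such windows over all genes, 33.8% held CCAAT, 12.4% TATAAA and 17.2% CAGGTG. None of the 3 motifs overlapped another in these windows. The windows of *Prrx1* and *Pdgfra*, which differed between the same groups, held none of the 3. A part of these motifs in the differences was not tested.

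The vesicle pools held signal of all 6 genes, none of it called different from the tissue around them, and 5 of the 6 genes were higher in the rest of the embryo. Of the 10 member probes, 8 were above background on every array of each group. The exceptions were the fourth *Prrx1* probe and the second *Snai1* probe, which passed on no array, so these probes say nothing about the groups.

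Between OV and periotic tissue no member probe passed the limma test at an adjusted p (*q*) under 0.05. The counts were 0 of 10 higher and 0 of 10 lower in OV, where 5.07% and 5.15% of all probes passed in these directions. One member probe, that of *Twist2*, had an unadjusted p under 0.05 in limma, and the neqc values likewise gave 0 calls with 1 probe at an unadjusted p under 0.05. The *Twist2* probe was also the 1 member probe that read lower on every OV array than on every periotic array, an order that 12.8% of all probes show, and 0 read higher throughout, against 12.3%. The median difference over the 10 probes was 0.02 log2, with single probes from -0.26 to 0.12, and the median over all probes was -3.71e-05.

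Against embryo-minus-otic, 7 of 10 member probes were lower in OV, from 5 of the 6 genes, where 5.51% of all probes were lower. None was higher, against 5.89% of all probes, and no member probe rose at an unadjusted p under 0.05 in limma or was called higher with neqc. The same 7 probes read lower on every OV array than on any embryo-minus-otic array, compared with 11.8% of all probes, and 0 read higher throughout, compared with 13.1%. The median difference over the 10 probes was -0.89 log2, with a median of 0.00434 over all probes. In periotic tissue 7 of 10 probes from 5 genes were lower than in embryo-minus-otic and 0 higher, with a median of -0.86. In this comparison 2.95% of all probes were lower and 2.86% higher, 9.19% lower without overlap and 10.6% higher without overlap. Again no member probe rose at an unadjusted p under 0.05 in limma. With median normalization in place of quantile normalization, 4 member probes were lower in periotic tissue and 6 in OV than in embryo-minus-otic. The comparisons of OV and of periotic tissue share the embryo-minus-otic arrays, so their likeness is no independent evidence. In pooled tissue, fewer cells of a type and less RNA per cell cannot be told apart.

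**Figure D1:**
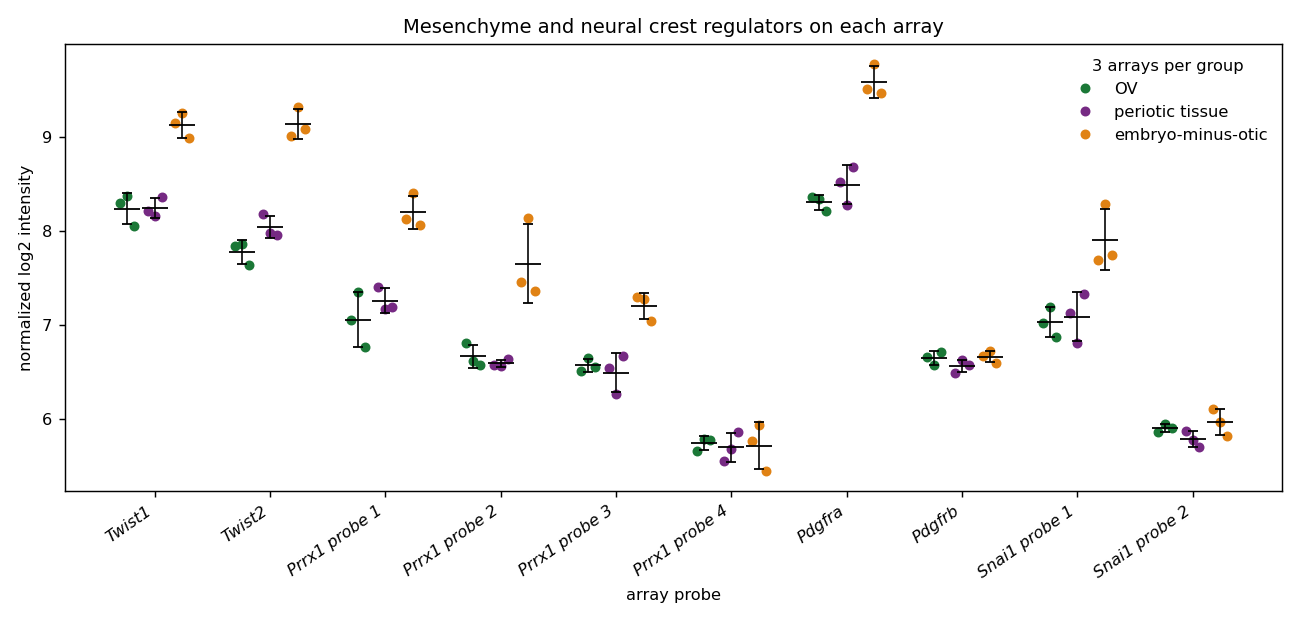
Normalized log2 intensity (vertical axis) of the 10 member probes on each of the 9 arrays, with OV in green, periotic tissue in purple and embryo-minus-otic in orange. Points are arrays, the long bar is the group mean and the whiskers are 1 SD (n = 3). The embryo-minus-otic points lie above both other groups for 7 probes. OV and periotic points overlap for every probe except that of *Twist2*, where all OV points lie lower.

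*Twist1*, which is needed for cranial mesenchyme and neural tube closure, read 8.30, 8.37 and 8.05 log2 on the 3 OV arrays. On the periotic arrays it read 8.21, 8.16 and 8.37, and on the embryo-minus-otic arrays 9.16, 9.26 and 8.99. The OV and periotic arrays overlapped, and every embryo-minus-otic array was above both. OV reached 99.6% of the periotic level (95% interval 85.1% to 116%), with a difference of -0.01 ± 0.11 (SE) log2 and a limma *q* of 0.990. Relative to embryo-minus-otic, OV was lower by a factor of 1.86 (*q* = 2.12e-05, limma) and periotic tissue by a factor of 1.85 (*q* = 5.26e-05, limma), or 1.99 and 1.98 with neqc. The periotic call was lost with median normalization, at -0.66 log2 (*q* = 0.0726, limma).

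*Twist2*, the close relative of *Twist1* known from dermal and other mesenchyme, read 7.84, 7.87 and 7.63 log2 in OV, against 8.18, 7.98 and 7.96 in periotic tissue and 9.01, 9.32 and 9.09 in embryo-minus-otic. The 3 groups did not overlap, with OV lowest and embryo-minus-otic highest on every array. The step from periotic tissue to OV was small and missed the threshold, at -0.26 ± 0.10 (SE) log2 with an unadjusted p of 0.0250 and a *q* of 0.164 (limma). OV held 83.4% of the periotic signal (95% interval 71.4% to 97.4%), or 80.4% with neqc. The drop from embryo-minus-otic to OV was the widest of any member probe, 2.57-fold (*q* = 1.98e-07, limma), and that to periotic tissue was 2.15-fold (*q* = 5.69e-06, limma). With neqc these were 2.92-fold and 2.35-fold.

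*Prrx1*, a regulator of limb and craniofacial mesenchyme, has 4 probes. The first, with the highest mean, read 7.05, 7.35 and 6.76 log2 in OV, against 7.41, 7.16 and 7.19 in periotic tissue and 8.13, 8.40 and 8.07 in embryo-minus-otic. OV and periotic arrays overlapped, and both groups lay below all embryo-minus-otic arrays. OV held 87.0% of the periotic signal (95% interval 71.3% to 106%, *q* = 0.506, limma), or 81.8% with neqc. It was 2.21-fold below embryo-minus-otic (*q* = 1.95e-05, limma), and periotic tissue was 1.92-fold below it (*q* = 2.94e-04, limma), or 2.75-fold and 2.25-fold with neqc. With median normalization the periotic call was lost, at -0.76 log2 (*q* = 0.0670, limma).

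The second *Prrx1* probe read 6.80, 6.62 and 6.57 log2 in OV, against 6.57, 6.56 and 6.63 in periotic tissue and 7.46, 8.14 and 7.36 in embryo-minus-otic. The third, which the annotation assigns to transcript variant 2, read 6.51, 6.64 and 6.55 in OV, against 6.54, 6.26 and 6.67 in periotic tissue and 7.29, 7.27 and 7.04 in embryo-minus-otic. Both showed the order of the first probe against embryo-minus-otic, with OV and periotic arrays overlapping. OV was 1.98-fold (*q* = 3.23e-04) and 1.55-fold (*q* = 9.62e-04) below embryo-minus-otic for these 2 probes in limma, which became 2.60-fold and 1.95-fold with neqc. Periotic tissue was 2.09-fold (*q* = 3.19e-04) and 1.64-fold (*q* = 6.64e-04) below embryo-minus-otic, or 2.84-fold and 2.16-fold with neqc. The differences between OV and periotic tissue were 0.08 ± 0.15 and 0.08 ± 0.11 (SE) log2, with limma *q* of 0.882 and 0.817, so the first probe read slightly lower in OV and these 2 slightly higher, none of them past the threshold. The fourth probe, also annotated to variant 2, was below background throughout, at 5.44 to 5.93.

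*Pdgfra*, the receptor of platelet-derived growth factors in mesenchyme, read 8.37, 8.34 and 8.21 log2 in OV, against 8.52, 8.27 and 8.69 in periotic tissue and 9.52, 9.78 and 9.47 in embryo-minus-otic. OV and periotic arrays overlapped, and all embryo-minus-otic arrays were higher than both. OV held 87.8% of the periotic signal (95% interval 74.2% to 104%, *q* = 0.439, limma). It was 2.43-fold below embryo-minus-otic (*q* = 9.55e-07, limma), and periotic tissue was 2.14-fold below it (*q* = 1.30e-05, limma), or 2.64-fold and 2.28-fold with neqc.

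*Pdgfrb*, the related receptor of pericytes and other cells around vessels, differed from the other genes in that no comparison passed. It read 6.66, 6.57 and 6.71 log2 in OV, against 6.49, 6.63 and 6.57 in periotic tissue and 6.66, 6.72 and 6.60 in embryo-minus-otic, and the 3 groups overlapped. The OV signal was 99.1% of that in embryo-minus-otic (95% interval 87.4% to 112%, *q* = 0.961, limma) and 106% of that in periotic tissue (93.6% to 120%, *q* = 0.703, limma). For comparison, the *Pdgfra* signal in OV was 41.1% of that in embryo-minus-otic (95% interval 34.7% to 48.6%). The *Pdgfrb* probe was above background on all 9 arrays, and with neqc its OV signal was 98.4% of that in embryo-minus-otic.

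*Snai1*, the Snail factor of early mesoderm and crest, read with its first probe 7.02, 7.19 and 6.87 log2 in OV, against 7.13, 6.81 and 7.32 in periotic tissue and 7.70, 8.29 and 7.75 in embryo-minus-otic. OV and periotic arrays overlapped and lay below all embryo-minus-otic arrays. OV held 96.1% of the periotic signal (95% interval 76.4% to 121%, *q* = 0.921, limma). It was 1.84-fold below embryo-minus-otic (*q* = 0.00102, limma), and periotic tissue was 1.77-fold below it (*q* = 0.00353, limma), or 2.21-fold and 2.10-fold with neqc. This was the member with the weakest support, since neither call held with median normalization, with *q* of 0.0931 and 0.198. The second probe, below background throughout at a detection p under 0.01, read 5.69 to 6.10.

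Embryo-minus-otic replicate 2 gave the highest reading of its group for 6 of the 7 probes lower in OV, the third *Prrx1* probe being the exception. Its reading stood furthest from the other 2 arrays for the second *Prrx1* probe and for *Snai1*. Without that array the OV difference from embryo-minus-otic was -0.74 log2 for the second *Prrx1* probe (*q* = 8.60e-05, limma) and -0.69 for *Snai1* (*q* = 0.00289, limma).

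**Figure D2:**
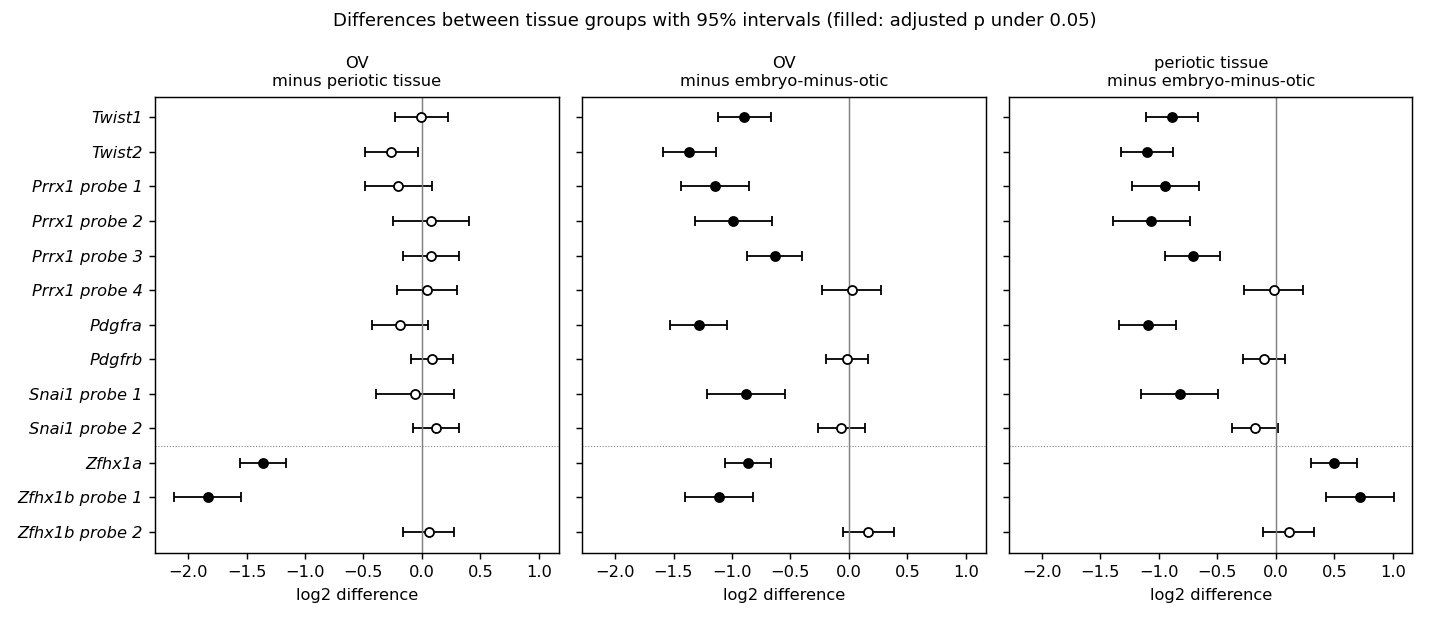
Log2 difference between groups (horizontal axis) for each member probe and, below the dotted line, for the 3 probes under the older names of *Zeb1* and *Zeb2*, with 95% intervals from limma. Filled points passed *q* under 0.05. Member points straddle 0 between OV and periotic tissue and lie left of it for 7 probes in both comparisons with embryo-minus-otic, while *Zfhx1a* and the first *Zfhx1b* probe lie left of 0 in both OV comparisons and right of it between periotic tissue and embryo-minus-otic.

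The probes under the older names of the Zeb genes followed another order. *Zfhx1a*, matched to *Zeb1* through its synonym in the reference gene table, read 8.58, 8.48 and 8.63 log2 in OV, against 9.91, 9.90 and 9.96 in periotic tissue and 9.47, 9.27 and 9.53 in embryo-minus-otic. The 3 groups did not overlap, with periotic tissue highest. OV was 2.57-fold below periotic tissue (*q* = 3.31e-08, limma) and 1.82-fold below embryo-minus-otic (*q* = 6.24e-06, limma). Periotic tissue stood at 141% of embryo-minus-otic (*q* = 0.00267, limma).

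*Zfhx1b*, matched to *Zeb2*, which acts in neural crest and neural tissue, read with its first probe 6.69, 6.66 and 6.51 log2 in OV, against 8.39, 8.29 and 8.69 in periotic tissue and 7.88, 7.40 and 7.92 in embryo-minus-otic. The groups again did not overlap, in the order OV, embryo-minus-otic, periotic tissue. OV held 28.1% of the periotic signal (95% interval 23.0% to 34.3%, *q* = 1.11e-07, limma), or 18.9% with neqc. It held 46.3% of the embryo-minus-otic signal (*q* = 2.93e-05, limma), or 34.0% with neqc, and periotic tissue stood at 165% of embryo-minus-otic (*q* = 0.00343, limma). The second *Zfhx1b* probe was above background on no array.

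The ligands of the platelet-derived growth factor receptors have 5 probes, of which 3 were above background on all arrays of a group and the *Pdgfd* probe and the second *Pdgfb* probe on none. *Pdgfc* was higher in OV than in periotic tissue, by 0.70 ± 0.12 (SE) log2 (*q* = 6.06e-04, limma), and *Pdgfb*, with its other probe, was lower, by -0.59 ± 0.09 (*q* = 2.61e-04, limma) or -1.03 with neqc. Relative to embryo-minus-otic, OV read -0.45 ± 0.09 for *Pdgfb* (*q* = 0.00279, limma; 0.0846 without normalization between arrays) and -0.53 ± 0.15 for *Pdgfa* (*q* = 0.0306, limma). The *Pdgfa* call was lost on leaving out any OV array or embryo-minus-otic replicate 1 or 2, with *q* up to 0.134, and also with neqc (*q* = 0.0966), without normalization between arrays (*q* = 0.166) and with median normalization, where it read -0.34 log2 (*q* = 0.554, limma). Periotic tissue read -0.68 ± 0.15 for *Pdgfa* (*q* = 0.0110, limma) and -0.46 ± 0.12 for *Pdgfc* (*q* = 0.0277, limma) against embryo-minus-otic. Both of these lost the call with neqc (*q* of 0.0575 and 0.0593), without normalization between arrays (0.0962 and 0.272) and with median normalization, where they read -0.43 and -0.34 log2 (*q* of 0.420 and 0.314, limma). They also lost it when single arrays were left out, *Pdgfa* without periotic replicate 1 or 2 and *Pdgfc* without periotic replicate 2 or 3 or embryo-minus-otic replicate 1 or 2, with *q* up to 0.154.

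Twist factors pair with E proteins and are held in check by Id proteins, and 11 of the 12 listed partners, inhibitors and relatives are on the array with 14 probes. Between OV and periotic tissue 1 was higher and 3 lower, and between OV and embryo-minus-otic 1 higher and 4 lower. Between periotic tissue and embryo-minus-otic 1 was higher and 3 lower. Of all probes, 5.07% were higher and 5.15% lower in the first comparison, 5.89% and 5.51% in the second, and 2.86% and 2.95% in the third. These shares stand beside the counts of the lists below as well. In OV *Scx*, a tendon lineage factor, was at least 1.76-fold above periotic tissue, where it did not pass background (*q* = 8.35e-07, limma). *Id4*, an inhibitor of basic helix-loop-helix factors, was lower in OV than in periotic tissue by -0.73 ± 0.14 (SE) log2 (*q* = 0.00256, limma; 0.0725 with median normalization). *Tcf15*, a somite factor, was not above background in OV or periotic tissue, at least 3.21-fold (*q* = 2.27e-09, limma) and 3.25-fold (*q* = 2.54e-09, limma) below embryo-minus-otic. *Tcf21*, a factor of visceral and branchial mesoderm, was likewise at least 1.51-fold (*q* = 3.12e-06, limma) and 1.52-fold (*q* = 8.68e-06, limma) below it.

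Of the corepressors and partners of Snail and Zeb factors 1 gene passed. Of their 10 probes, 6 were above background on all arrays of a group, and 1, that of the histone deacetylase *Hdac1*, was higher in OV, by 0.53 ± 0.15 (SE) log2 against periotic tissue (*q* = 0.0369, limma) and 0.59 ± 0.15 against embryo-minus-otic (*q* = 0.0192, limma). The first of these calls was lost without any one OV array or periotic replicate 3, with *q* up to 0.128. It was also lost with neqc (*q* = 0.118, limma), with median normalization (*q* = 0.228, limma) and without normalization between arrays (*q* = 0.185, limma). The second was lost without OV replicate 1 or 2 or embryo-minus-otic replicate 1 or 2, with *q* up to 0.0732, and with neqc (*q* = 0.0741, limma). Between periotic tissue and embryo-minus-otic 0 of 10 passed in limma.

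Epithelial genes that Snail and Zeb factors are known to repress were high in OV. Of 21 probes from 17 genes, 16 were higher in OV than in periotic tissue and 17 higher than in embryo-minus-otic, with none lower and medians of 1.73 and 1.24 log2, against medians near 0 over all probes. *Esrp1*, a splicing factor of epithelia listed as *Rbm35a*, was 16.2-fold above periotic tissue (*q* = 9.79e-11, limma) and 6.93-fold above embryo-minus-otic (*q* = 5.43e-09, limma). *Cldn4*, a tight junction claudin, was 7.91-fold (*q* = 2.93e-10, limma) and 4.35-fold (*q* = 1.64e-08, limma) above them. Between periotic tissue and embryo-minus-otic 8 probes were lower and 0 higher, among them *Krt8* at 2.54-fold (*q* = 1.25e-05, limma).

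Structural genes of mesenchyme were lower in OV for 16 of 31 probes against embryo-minus-otic and for 7 against periotic tissue. Of the 31 probes, 3 were higher and 7 lower in OV than in periotic tissue, 2 higher and 16 lower in OV than in embryo-minus-otic, and 0 higher and 11 lower in periotic tissue than in embryo-minus-otic, with medians of -0.10, -0.41 and -0.22 log2. *Vim*, the intermediate filament vimentin, was 4.02-fold lower in OV than in periotic tissue (*q* = 5.04e-06, limma), and *Sparc*, a matrix protein, 2.08-fold lower (*q* = 6.85e-05, limma). *Mfap4*, a microfibril protein, exceeded periotic tissue 2.38-fold in OV (*q* = 3.42e-07, limma). *Fbln1*, a matrix fibulin, was 1.52-fold higher there with its most changed probe (*q* = 2.32e-04, limma, or 0.0918 without normalization between arrays). Another *Fbln1* probe was 1.38-fold higher (*q* = 0.0261, limma), and the remaining probe was not called, at 0.28 ± 0.12 (SE) log2 (*q* = 0.211, limma). *Acta2*, the actin of smooth muscle, was 10.03-fold lower in OV than in embryo-minus-otic with its more changed probe (*q* = 4.01e-09, limma). That probe was above background on 1 of 3 OV arrays, and its difference of -3.33 log2 became -4.41 with neqc.

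Among the called probes of other regulators of cranial mesenchyme and mesoderm, more were lower than higher in OV. Of 26 probes, 2 were higher and 7 lower in OV than in periotic tissue, 2 higher and 13 lower in OV than in embryo-minus-otic, and 2 higher and 10 lower in periotic tissue than in embryo-minus-otic. *Msx1*, a homeobox factor of crest mesenchyme, was 2.18-fold lower in OV than in periotic tissue (*q* = 0.00158, limma; 0.0545 with median normalization), and *Pou3f4*, a factor of otic mesenchyme, was 1.97-fold lower (*q* = 7.06e-06, limma). The *Pou3f4* probe was above background on 1 of 3 OV arrays, and its difference of -0.98 log2 became -1.68 with neqc. *Tbx1*, which is also an otic epithelial gene, was 4.55-fold higher (*q* = 3.55e-10, limma). *Meox1*, a factor of somitic mesoderm, was 9.04-fold lower in OV than in embryo-minus-otic (*q* = 2.58e-09, limma). It was above background on 2 of 3 OV arrays, and its difference of -3.18 log2 became -4.03 with neqc.

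Among neural crest genes, 3 of 29 probes were higher and 13 lower in OV than in periotic tissue, 2 higher and 13 lower in OV than in embryo-minus-otic, and 3 higher and 5 lower in periotic tissue than in embryo-minus-otic. *Tfap2b*, an AP-2 factor of crest, was 8.95-fold lower in OV than in periotic tissue (*q* = 1.96e-11, limma), and *Crabp1*, a retinoic acid binding protein of crest and hindbrain, 8.33-fold lower (*q* = 1.64e-10, limma). The *Tfap2b* probe, listed as *Tcfap2b*, was above background on 2 of 3 OV arrays, and its difference of -3.16 log2 became -4.02 with neqc. *Sox9*, a crest factor that the otic epithelium also expresses, was 4.08-fold higher in OV (*q* = 3.32e-07, limma). *Foxd3*, *Mitf* and *Pax7* were above background on no array of any group.

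**Figure D3:**
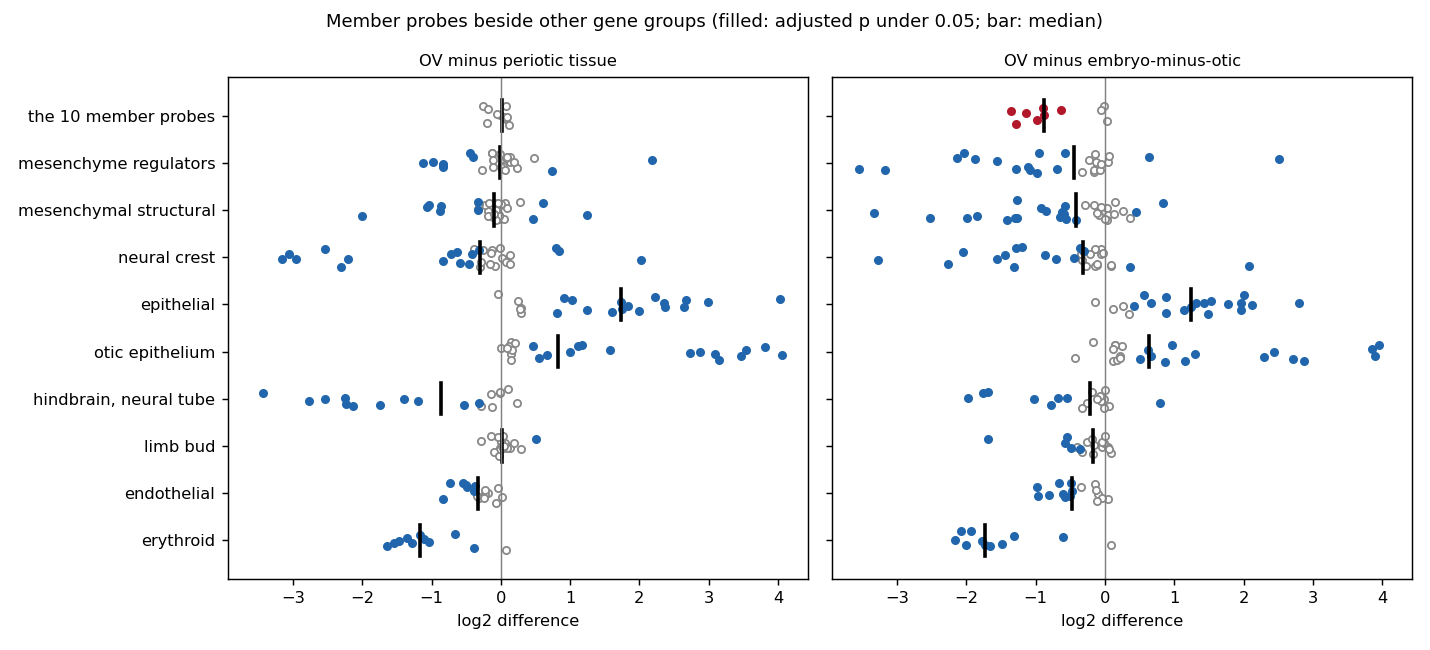
Log2 difference of OV from periotic tissue (left) and from embryo-minus-otic (right) for each member probe (red where called) and for each probe of 9 other gene groups (blue where called), with the median of each group as a black bar. Filled points passed *q* under 0.05 in limma. The member median lies at 0.02 on the left and -0.89 on the right, and the epithelial median at 1.73 and 1.24.

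Markers of other tissues also differed between the groups, in an order that was not the same for every list. Hindbrain and neural tube markers were lower in OV than in periotic tissue for 11 of 18 probes and higher in periotic tissue than in embryo-minus-otic for 8 of 18, with summed intensities of 3817 to 4438 in OV, 9037 to 10079 in periotic tissue and 4804 to 5410 in embryo-minus-otic. In OV 12 of these probes were above background on no array, *Egr2*, *Neurog2*, *Wnt1* and *Pax3* among them. Their order across the groups was that of *Zfhx1a* and *Zfhx1b*. The neural crest list had the same order, with sums of 8871 to 9860 in OV, 19696 to 21580 in periotic tissue and 12728 to 15110 in embryo-minus-otic. The part of either list in the *Zfhx1a* and *Zfhx1b* result was not tested. *Pax3* stands in both the hindbrain and neural tube list and the neural crest list.

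Erythroid markers were lower in OV for 10 of 11 probes against either other group, with sums of 16896 to 41480 in OV, 65408 to 76524 in periotic tissue and 88158 to 94073 in embryo-minus-otic. *Epb4.2* was above background on no array of any group, and *Hbb-b1* on no OV array. Endothelial markers were lower in OV for 7 of 16 probes against periotic tissue and 9 of 16 against embryo-minus-otic, with sums of 1891 to 2094, 2615 to 2876 and 2890 to 3206, and *Erg* at background everywhere. Limb bud markers were above background on no array for 14 of 18 probes in OV and 16 of 18 in periotic tissue. In embryo-minus-otic this held for 9 of 18 probes, and *Hoxd11*, *Hoxd13*, *Pitx1*, *Tbx4* and *Tbx5* passed background on no array there. Against embryo-minus-otic, 5 of 18 probes were lower in OV and 5 of 18 in periotic tissue. Limb sums were 1124 to 1156 in OV, 1075 to 1124 in periotic tissue and 1402 to 1617 in embryo-minus-otic. They were highest where the called members were highest. The same held for the cranial mesenchyme and mesoderm regulators, with sums of 3189 to 3519 in OV, 3686 to 3844 in periotic tissue and 5896 to 7576 in embryo-minus-otic. It also held for the structural genes of mesenchyme, with sums of 6195 to 6736, 8047 to 8696 and 9473 to 10559. The part of limb tissue, other mesenchyme and blood in the members' differences was not tested.

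Otic epithelium markers checked the labels. Of 24 probes, 15 were higher in OV than in periotic tissue and 14 higher than in embryo-minus-otic, with 0 lower in either. Their sums were 10989 to 12271 in OV, 2744 to 3288 in periotic tissue and 3964 to 4730 in embryo-minus-otic, and *Oc90*, *Pax2* and *Pax8* were above background on no periotic array. *Hmx2* and *Hmx3* were above background on no array of any group, OV included.

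The genes whose pattern lay closest to that of *Twist2*, the member probe with the widest range of group means, were *Gm484*, *Bnc1* and *Dcn*. Pearson's r over the 9 arrays was 0.990, 0.988 and 0.982 among 11841 probes compared, and since the arrays fall into 3 tissue groups this describes mainly the group means. *Dcn*, the matrix proteoglycan decorin and one of the mesenchymal structural genes, read 6.09 log2 in OV, 6.28 in periotic tissue and 7.95 in embryo-minus-otic with this probe.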

How the data were processed

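Every probe has 1 average GenomeStudio bead signal and 1 detection p-value per array as deposited, and the deposited intensity had not been normalized between arrays. RNA had been amplified from an oligo(dT) primer and labelled with biotin. The slide of each array is not given in the sources used here.

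Groups were taken from the tissue in each label. Intensities were log2 transformed (values under 1 set to 1) and then quantile normalized. A single linear model of 3 groups of 3 arrays was fitted to all 25697 probes (limma 3.58.1, R 4.3.3), moderated by empirical Bayes and adjusted by Benjamini-Hochberg over all probes within each comparison. Tests were 2-sided, and probes were called at *q* under 0.05. Intervals are 95%. The fit was tested on simulated data. For a probe above background on no array of the dimmer group, a fold is a lower bound ("at least"), set on each array of that group by the dimmest probe above background there or by the probe's own signal, whichever was higher.

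Alternatives were neqc (offset 16), median or no normalization between arrays, a filter on dim probes, fits of 2 groups, an intensity trend in the prior, a block on replicate number, each array left out in turn, and a detection threshold of 0.05.

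Named were all member probes, numbered by their mean over the arrays, the 2 called probes with the largest change in each direction from each wider list, and the 3 genes most like the member with the widest range. Not all genes under this rule are given. *Egr2*, *Neurog2*, *Wnt1*, *Pax3*, *Foxd3*, *Mitf*, *Pax7*, *Epb4.2*, *Hbb-b1*, *Erg*, *Hoxd11*, *Hoxd13*, *Pitx1*, *Tbx4*, *Tbx5*, *Oc90*, *Pax2*, *Pax8*, *Hmx2*, *Hmx3* and *Pdgfd* were named after their values were seen. The members and lists were chosen with earlier results of these data known. Of 170 genes in the lists, 162 were matched, 13 of them through an older symbol in a reference gene table on GRCm38.p6.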

Additional observations from a re-analysis of the deposited data

How the results depend on the processing

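The member counts between OV and periotic tissue (0 and 0) and between OV and embryo-minus-otic (7 lower, 0 higher) kept these values under all alternatives run, except that median normalization gave 6 lower against embryo-minus-otic, the *Snai1* probe reading -0.76 log2 there. Between periotic tissue and embryo-minus-otic, median normalization gave 4 lower in place of 7, with -0.66 for *Twist1* (*q* = 0.0726, limma), -0.76 for the first *Prrx1* probe (*q* = 0.0670, limma) and -0.65 for *Snai1*. The cause was not tested. Each array left out in turn gave 0, 7 and 7 lower probes, and 0 higher in every comparison. No called difference of a member or of *Zfhx1a* and *Zfhx1b* changed sign under any alternative. Without normalization between arrays the median of all probes moved to -0.09 log2 in OV against embryo-minus-otic and -0.08 in periotic tissue against it.

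Arrays that share a replicate number deviated from their group means with correlations of 0.00798 to 0.182, all positive. Arrays of different groups and numbers gave -0.143 to 0.0491. Not every array was closest to its own number, and the labels name no litter, so the main fit did not take the numbers as pairs. Whether the numbers stand for litters was not tested. With the replicate block the counts were 0, 7 and 7 lower, and no other call on a member changed. Signals near background limit the fourth *Prrx1* and second *Snai1* probes, and 3 arrays per group limit the precision. The named probes of the wider lists lost the call in 22 of their alternative fits between OV and periotic tissue, 36 between OV and embryo-minus-otic and 52 between periotic tissue and embryo-minus-otic, and none reversed.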
